A study of Homo sapiens with 4 samples.

Results

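The genes described here are 8 enzymes that make or spend proline, glutamine and glutamate: PYCR1, PYCRL, ALDH18A1, GPT2, GOT1, GOT2, GLUL and PCK2. They were chosen by name, and all 8 were found among the 18917 genes of the count table and passed the filter on low counts, which left 13128 genes for testing. RNA was sequenced from HEK-293T cells, which the sample labels call HEK293 and which derive from human embryonic kidney, in 2 WT and 2 THUMPD1 KO libraries. THUMPD1 is the adapter that NAT10, an RNA acetyltransferase, needs to acetylate a cytidine in tRNA for leucine and serine, and the comparison asks how its loss alters RNA levels. Both genotypes grew in DMEM with 10% serum and 2 mM glutamine, so the medium supplied one of the amino acids that these enzymes handle. The KO line was made with a pair of CRISPR-Cas9 guides and then sorted as single cells, so that genotype and clone cannot be told apart.

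Glutamate is the hub of this part of metabolism. ALDH18A1 (pyrroline-5-carboxylate synthase) turns glutamate into pyrroline-5-carboxylate, which the reductases PYCR1 in mitochondria and PYCRL in the cytosol turn into proline. GLUL (glutamine synthetase) adds ammonia to glutamate to form glutamine. GPT2 in mitochondria, GOT1 in the cytosol and GOT2 in mitochondria are aminotransferases. With the amino group of glutamate, GPT2 forms alanine and the GOT pair forms aspartate. The GOT pair also belongs to the malate-aspartate shuttle. PCK2, the mitochondrial phosphoenolpyruvate carboxykinase, draws oxaloacetate into phosphoenolpyruvate. ALDH18A1, PYCR1, GPT2 and PCK2 are known targets of ATF4, the transcription factor of the integrated stress response (ISR).

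Library totals ran from 7875722 to 11362363 counts, and the common biological coefficient of variation between replicates was 6.75%. Counts of THUMPD1 were 356 and 468 for WT and 71 and 58 for KO (log2 fold change -2.93). Of 6 embryonic kidney markers all were detected, with PAX2 at 51 counts or more in every library, and LHX1 was the only one past the threshold (6 counts in each WT library, 37 and 27 in the KO libraries). Of defining markers of other cell types, ALB was at 2 counts or fewer, PTPRC at 5 or fewer and PECAM1 at 1 or fewer, while CPS1 of the hepatocyte list, COL1A1 of the fibroblast list and CDKN2A of the HeLa list had 194 counts or more in every library of both genotypes and did not pass the threshold. Values below are CPM (counts scaled to the same total per library) on library sizes adjusted by edgeR's TMM method, and log2 fold changes are KO against WT. Fewer cells that express a gene and less RNA per cell cannot be told apart in such bulk libraries.

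Of the 8 enzymes, 4 were lower in KO cells and 0 were higher at an adjusted p of 0.05. They were PYCRL, PYCR1, PCK2 and GOT2, and their log2 fold changes ran from -0.90 to -0.28. Among all genes tested 12.1% were called lower and 8.79% higher (quasi-likelihood test of edgeR, p adjusted by Benjamini-Hochberg). The 8 had a median log2 fold change of -0.26, against 0.01 over all genes tested. ALDH18A1, GPT2, GOT1 and GLUL did not pass the threshold. Without a threshold, both KO libraries lay below both WT libraries for 5 of the 8 genes and above them for 1, while such separation was seen in 60.4% of all tested genes, in 30.0% downwards and in 30.4% upwards. The count moved with the method. DESeq2 called 3 of the 8 lower and 0 higher, beside 9.05% and 5.22% of its genes, and limma-voom with quantile normalization called 4 lower and 1 higher, beside 10.3% and 9.74%. With library size alone, 2 were lower and 1 was higher, beside 8.82% and 15.9%.

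**Figure D1:**
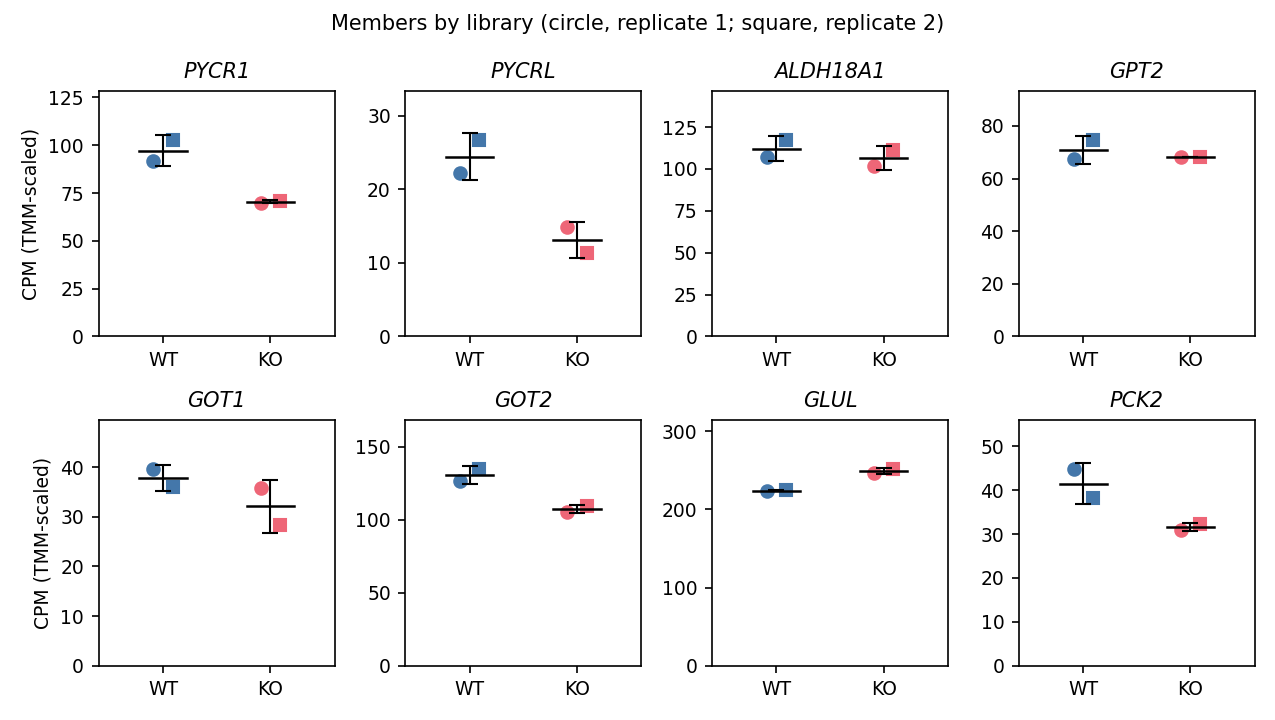
Expression of the 8 enzymes in every library, in TMM-scaled CPM on a linear axis from 0, with WT in blue and THUMPD1 KO in red. Circles are replicate 1, squares are replicate 2, horizontal lines are means and error bars are the SD over 2 libraries. PYCR1, PYCRL, PCK2, GOT2 and GOT1 lie lower in both KO libraries, although GOT1 was not called. GLUL lies higher in both and was not called either, and the genotypes overlap for ALDH18A1 and GPT2.

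The proline reductases PYCR1 and PYCRL were lower in KO cells while the enzyme that feeds them was not called. Counts of PYCR1 were 702 and 1131 for WT and 809 and 757 for KO. Scaled for depth this was 91.6 and 103 CPM in WT and 69.9 and 71.1 CPM in KO cells. The KO libraries thus lay close together and well below both WT libraries. The log2 fold change of PYCR1 was -0.47 (standard error 0.09, 95% interval -0.65 to -0.29, adjusted p = 0.000299). It was called lower under all 8 alternative fits at the same threshold and with each library left out, where it ran from -0.55 to -0.38.

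PYCRL, whose current symbol is PYCR3, was the least abundant of the 8 and had the lowest log2 fold change. Its counts were 170 and 294 for WT and 172 and 121 for KO, or 22.2 and 26.8 CPM in WT and 14.9 and 11.4 CPM in KO cells. The genotypes did not overlap, although replicates of each genotype differed more from one another than those of PYCR1. Its log2 fold change was -0.90 (standard error 0.18, 95% interval -1.26 to -0.54, adjusted p = 0.000511), a fold of 0.534. With each library left out it stayed between -1.11 and -0.73 and was called lower each time. Only 2.50% of all tested genes had a lower log2 fold change.

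ALDH18A1 had 107 and 117 CPM in the WT libraries and 102 and 111 CPM in the KO libraries, so that the genotypes overlapped. Its log2 fold change was -0.08 (95% interval -0.24 to 0.08, adjusted p = 0.521). A change of the size seen for PYCR1 lies outside that interval. Ratios of counts within a library need no scaling between libraries. PYCR1 had 0.856 and 0.876 counts per ALDH18A1 count in WT and 0.688 and 0.638 in KO cells, and PYCRL had 0.207 and 0.228 in WT and 0.146 and 0.102 in KO cells. Both ratios were lower in both KO libraries. They were chosen after the values had been seen and were not tested.

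On the aminotransferase side GOT2 was lower in KO cells, and GPT2 and GOT1 did not pass the threshold. Counts of GOT2 were 969 and 1483 for WT and 1221 and 1165 for KO, which was 126 and 135 CPM in WT and 105 and 109 CPM in KO cells. The log2 fold change was -0.28 (standard error 0.07, 95% interval -0.44 to -0.13, adjusted p = 0.00732). The call was lost without WT replicate 2 (-0.23, adjusted p = 0.0771), without KO replicate 1 (-0.26, adjusted p = 0.0682) and with scaling by library size alone (-0.20, adjusted p = 0.0502). Over the 8 alternative fits the adjusted p ran from 0.00163 to 0.0502. Reads from 6 annotated GOT2 pseudogenes could be shared with the gene, which was not tested.

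GOT1 had 39.6 and 36.0 CPM in WT and 35.8 and 28.4 CPM in KO cells. Its KO libraries were both below its WT libraries, but KO replicate 1 was almost level with WT replicate 2. The log2 fold change of -0.23 had a 95% interval from -0.50 to 0.04 (adjusted p = 0.228), which holds the value of GOT2. The count ratio of GOT2 to GOT1 was 3.19 and 3.74 in WT and 2.94 and 3.86 in KO libraries, and so overlapped between the genotypes.

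GPT2 had 67.3 and 74.8 CPM in WT, and both KO libraries stood at 68.1 CPM, inside the WT range. Its log2 fold change was -0.07 (95% interval -0.26 to 0.12, adjusted p = 0.658). The direction of GPT2 was not settled, since its value came to 0.017 without WT replicate 2 and to 0.019 with scaling by library size alone.

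GPT2 and GOT2 both lie on chromosome 16, where many genes were called lower. For either enzyme the other 572 tested genes there had a median of -0.44. Set beside GOT2, 50.5% of them were called lower, and beside GPT2 50.7%. GPT2 stood above 85.1% of these genes and GOT2 above 66.4%. Within 5 Mb the 40 other tested genes around GOT2 had a median of -0.30, close to its own value, and 15 of them were called lower. The 22 around GPT2 had a median of -0.18, and 5 were called lower. The neighbours of the other lower enzymes were also somewhat below 0. Over all genes tested, 6382 of 13128 were below 0, and 12.1% were called lower and 8.79% higher. Within 5 Mb of PYCR1, 58 of 81 other tested genes were below 0 (median -0.14, 17 called lower, 3 higher). For PYCRL 44 of 69 were (median -0.10, 7 called lower, 2 higher), and for PCK2 54 of 75 (median -0.10, 7 called lower, 4 higher). The part of chromosome position in the lower levels of these 4 genes was not tested. For the other 6 enzymes the chromosome median lay between -0.06 (chromosome 17, PYCR1) and 0.06 (chromosome 10, ALDH18A1 and GOT1).

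**Figure D2:**
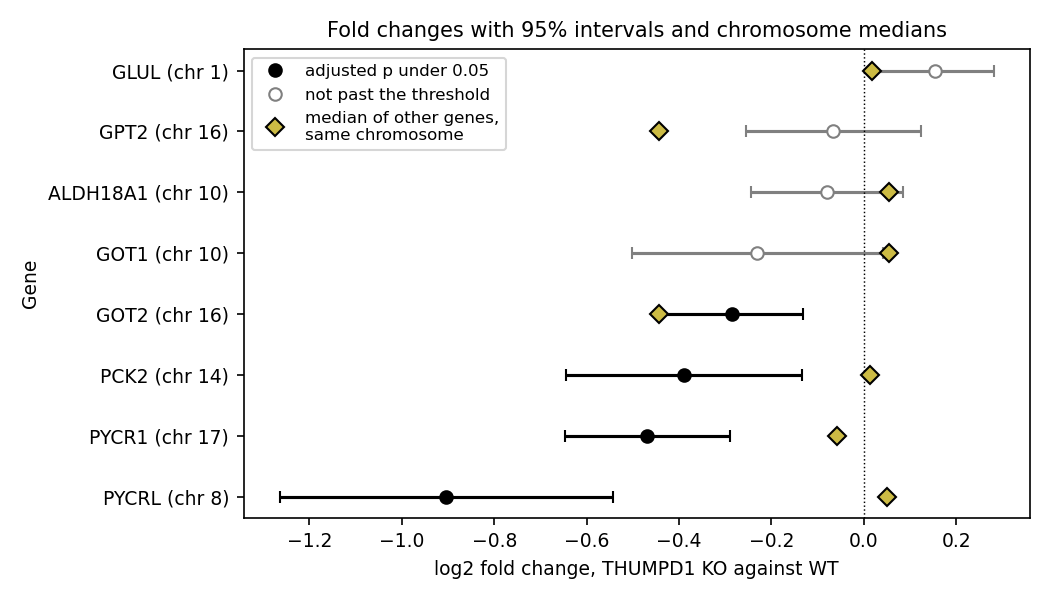
Log2 fold change of THUMPD1 KO against WT for the 8 enzymes (horizontal axis), ordered by value, with 95% intervals as bars. Filled points passed an adjusted p of 0.05 and open points did not, and diamonds give the median of the other tested genes on the same chromosome. PYCRL at -0.90, PYCR1 at -0.47 and PCK2 at -0.39 lie below the medians of their chromosomes, whereas GOT2 lies above the chromosome 16 median of -0.44. Of the genes not called, GPT2 at -0.07 also lies above that median, and GOT1 at -0.23 lies below its chromosome median of 0.06.

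PCK2 was lower in KO cells, with less certainty than PYCR1 and PYCRL. Its counts were 344 and 420 for WT and 358 and 343 for KO, or 44.9 and 38.2 CPM in WT and 30.9 and 32.2 CPM in KO cells. The KO values were close to each other, and the WT pair differed by about as much as WT replicate 2 differed from the KO libraries. The log2 fold change was -0.39 (standard error 0.12, 95% interval -0.65 to -0.13, adjusted p = 0.0257). It lost the call without WT replicate 1 (-0.28, adjusted p = 0.205), without KO replicate 1 (-0.36, adjusted p = 0.127), with DESeq2 (adjusted p = 0.0926) and with library size alone (-0.31, adjusted p = 0.0739). Over the 8 alternative fits the adjusted p ran from 0.0114 to 0.0926. NRL overlaps PCK2 on the opposite strand, but its counts were only 3 and 7 for WT and 1 and 3 for KO. PCK1, the cytosolic form of the enzyme, was counted 0 and 2 times for WT and 5 and 8 times for KO and was below the filter for testing.

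GLUL had the highest count of the 8 and was the one with a positive log2 fold change. Its counts were 1713 and 2471 for WT and 2855 and 2683 for KO, which was 223 and 225 CPM in WT and 247 and 252 CPM in KO cells. Replicates agreed closely and the genotypes did not overlap. The log2 fold change was 0.15 (standard error 0.06, 95% interval 0.02 to 0.28), and it did not pass the threshold (adjusted p = 0.0837). It was called higher by 4 of the 8 alternative fits, among them those with library size alone, the upper quartile and limma-voom with quantile normalization, with values from 0.15 to 0.24. Over the 8 alternative fits the adjusted p ran from 0.00561 to 0.169. GLUL has 4 annotated pseudogenes, and sharing of reads with them was not tested.

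Across genes, levels were compared as CPM per kilobase of the canonical transcript in GENCODE 44. In WT cells GOT2 was highest at 54.0 ± 2.50 CPM per kilobase (SD, n = 2), followed by PYCR1 at 42.9 ± 3.54 and ALDH18A1 at 33.5 ± 2.22. GLUL was at 29.7 ± 0.135 on its canonical transcript of 7554 bases, and would rank higher on a shorter one. GOT1 at 19.1 ± 1.29, PCK2 at 19.1 ± 2.16 and GPT2 at 17.8 ± 1.33 could not be separated, since their libraries overlapped. PYCRL was lowest at 7.32 ± 0.969. In KO cells PYCR1 had come down to 31.1 ± 0.374, within the range of ALDH18A1 at 31.8 ± 2.08 and just below GLUL at 33.0 ± 0.498.

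**Figure D3:**
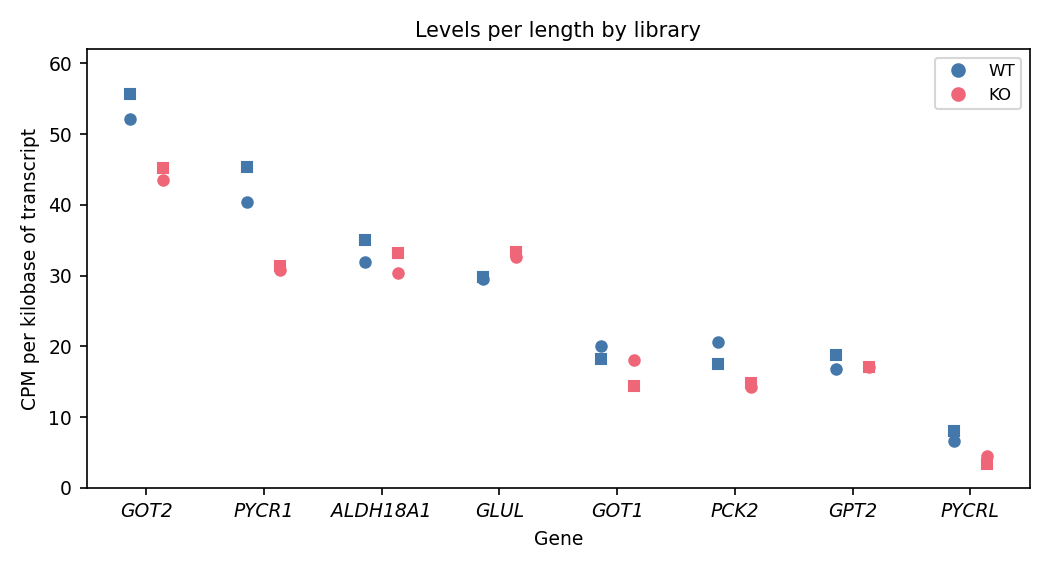
Levels of the 8 enzymes per length, as CPM per kilobase of canonical transcript on a linear axis from 0, in order of the WT mean. Blue points are WT and red points KO libraries, with circles for replicate 1 and squares for replicate 2. GOT2 leads in both genotypes, and PYCR1, second at 42.9 in WT, falls among ALDH18A1 and GLUL at 31.1 in KO cells.

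The other genes of these pathways were taken in 7 lists by role, 50 genes of which 42 could be tested. Of the 42, 5 were lower and 0 were higher in KO cells, or 11.9% lower beside the 12.1% of all genes tested. Their median log2 fold change was -0.04. The split was not stable. Without WT replicate 2, 1 was lower and 3 were higher (ASNS, GLUD1 and SLC25A12, the last chosen after its value was seen), and with library size alone 2 were lower and 2 higher (ASNS and GLUD1). CAD, PFAS, SLC25A22 and PKM are described here.

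Among 10 glutamine amidotransferases, which take the amide nitrogen of glutamine, 2 were lower, and the median was 0.00. PFAS, an enzyme of purine synthesis, stood at 92.3 and 100.3 CPM in WT and at 70.0 and 70.9 CPM in KO cells (log2 fold change -0.45, standard error 0.08, adjusted p = 0.000347). It was called lower under all 8 alternative fits and with each library left out. CAD, which starts pyrimidine synthesis, was at 97.6 and 115 CPM in WT and at 90.5 and 85.4 CPM in KO cells (-0.28, adjusted p = 0.0212), a call lost without WT replicate 2, without KO replicate 2, with DESeq2, with limma-voom and with library size alone. CTPS1 at 0.07 and ASNS at 0.16 did not pass.

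Of the genes that handle proline beside the reductases, OAT, which links ornithine to pyrroline-5-carboxylate, was at 62.1 CPM (WT) and 51.5 CPM (KO) and missed the threshold (-0.27, adjusted p = 0.0539). PEPD, which releases proline from dipeptides, was at -0.12. PRODH, the first enzyme of proline breakdown, was counted 30 and 45 times for WT and 26 and 21 times for KO (log2 fold change -0.92, adjusted p = 0.145). It was chosen after its value was seen, and lies on chromosome 22, whose 311 tested genes, PRODH included, were at a median of -0.42.

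None of the 4 genes of glutamine and glutamate interconversion passed the threshold. GLUD1 (glutamate dehydrogenase) was at 117 CPM (WT) and 129.8 CPM (KO) with a log2 fold change of 0.15 (adjusted p = 0.212). None of 8 other aminotransferases of glutamate passed, with PSAT1 at -0.07 and BCAT1 at -0.15. Of 7 genes of the malate-aspartate shuttle and the mitochondrial glutamate carriers, SLC25A22, a glutamate carrier, was lower (18.9 and 21.3 CPM in WT, 13.3 CPM in both KO libraries, log2 fold change -0.60, adjusted p = 0.0140). It lost its call with DESeq2 and in 3 of the 4 fits with a library left out, those that kept WT replicate 1. MDH2 at 0.02 and SLC25A11 at 0.03 did not pass. Of 4 genes of pyruvate and phosphoenolpyruvate, PKM (pyruvate kinase) was lower, at 755 and 762 CPM in WT and 658 and 680.1 CPM in KO cells (log2 fold change -0.18, adjusted p = 0.0251), and the call held in 1 of 4 fits with a library left out, that without KO replicate 2. Upper-quartile scaling and library size alone also ended it. ME2 at 0.05 and ME1 at 0.11 did not pass. GCLC at 0.08 and ALDH5A1 at -0.02 led a last list of 4 tested genes, in which 0 passed.

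**Figure D4:**
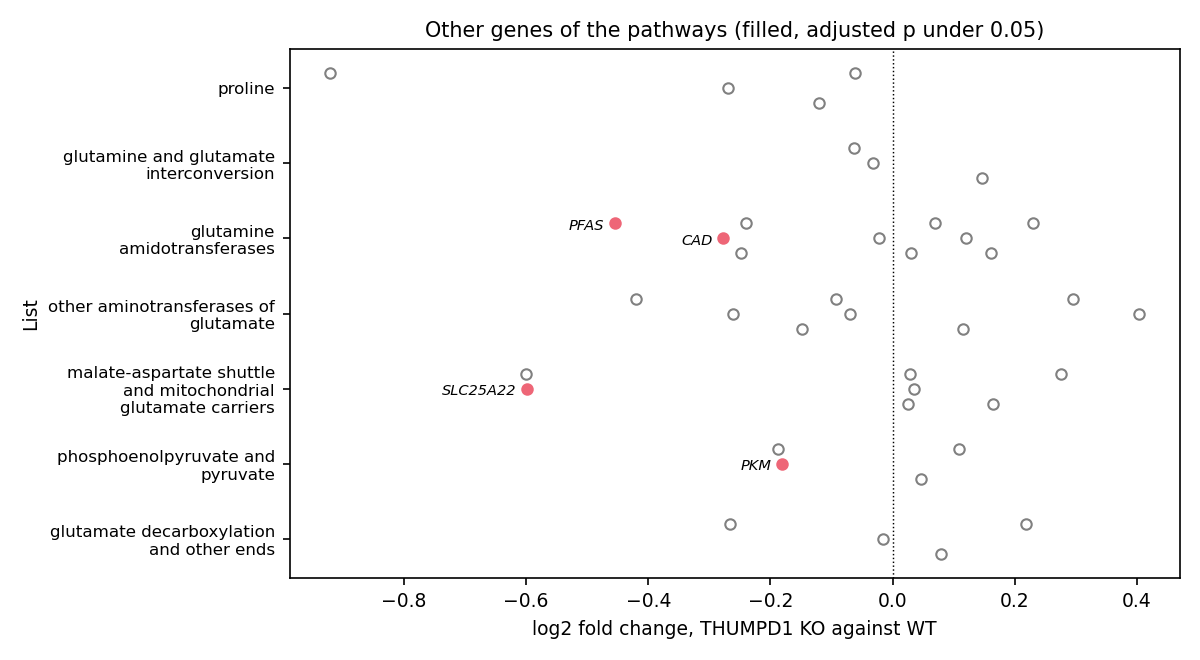
Log2 fold change of THUMPD1 KO against WT (horizontal axis) for 40 tested genes in 7 lists by role, 1 point per gene, with vertical offsets only to separate points. Filled red points passed an adjusted p of 0.05 and are named. The 4 of them lie between -0.60 (SLC25A22) and -0.18 (PKM), and open points spread to both sides of 0.

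The transcripts of PYCR1, PYCRL and PCK2 were rich in GC, and genes of like GC content also had lower values. The canonical transcript of PYCR1 is 63.1% GC, that of PYCRL 61.4% and that of PCK2 58.9%, beside a median of 48.4% over 13013 tested genes. Other tested genes within 2 percentage points of GC had median log2 fold changes of -0.18 for PYCR1, -0.15 for PYCRL and -0.12 for PCK2, all nearer to 0 than the genes themselves. GPT2, at 56.4% GC, had a matching median of -0.08, about its own value. GOT2, close to that overall median in GC, ALDH18A1 at 49.2% and GOT1 at 48.9% had matching medians of 0.00 to 0.01, and GLUL at 44.7% one of 0.07. The part of GC content in these results was not tested.

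Since THUMPD1 serves tRNA for leucine, the leucine codons of the 8 coding sequences were counted. Of the 6 codons, TTA, CTA, CTT and TTG, all those other than CTG and CTC, were grouped, and they made up a median of 40.8% of leucine codons over 12931 tested genes. PYCR1 has 4 of them among 36 leucine codons, PYCRL 3 among 33 and GPT2 2 among 43. ALDH18A1 has 42 among 92 and GLUL 10 among 21, while GOT1 with 13 among 37, GOT2 with 13 among 34 and PCK2 with 14 among 57 lie between. PYCR1 and PYCRL thus had few of these codons, as did GPT2, which was not called. Serine codons made up a median of 6.35% of all codons in the 8 enzymes and 7.58% over the tested genes. RNA levels were measured here, not translation.

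RefSeq promoters on GRCh38.p14, from 250 bases before to 50 after the start, were found for 5 of the 8 genes, ALDH18A1, GLUL, GOT1, GOT2 and PCK2, in 6 windows. They were searched on both strands for TGATGNAA, the core of the element that ATF4 binds with its C/EBP partners, and for CACGTG, the E-box of MYC, which reads the same on both strands. The first was found in 1 of the 6 windows, that of GOT1, and in 3.62% of all 35116 promoters. The second was found in 1 window, that of ALDH18A1, and in 7.26% of all promoters. Both matches are shown because these are the transcription factors best known to drive such enzymes, with the matched bases in capitals, 5' to 3' on the strand of the gene (minus). The GOT1 match starts at position -198 from the start of transcription and reads the element on the opposite strand. The 30 bases shown for GOT1, flanks included, span chr10:99430804-99430833. The ALDH18A1 match starts at position -136, and the 28 bases shown span chr10:95656831-95656858.
GOT1: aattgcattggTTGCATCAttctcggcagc
ALDH18A1: ggctggcccgcCACGTGgagcgctggct
These are matches of letters only, and neither gene passed the threshold in KO cells.

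ATF4 itself stood at 839 and 835 CPM in WT and at 939 and 935 CPM in KO libraries, and was called higher (log2 fold change 0.16, adjusted p = 0.0416). That adjusted p is near the threshold, and the call of ATF4 under the alternative fits is not reported here. These are RNA levels. By immunoblot, the paper found that loss of THUMPD1 alone did not activate ATF4 in HEK-293T cells. Of the known ATF4 targets among the 8, PYCR1 at -0.47 and PCK2 at -0.39 were lower, and ALDH18A1 at -0.08 and GPT2 at -0.07 were not called.

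The genes most like the lower enzymes were sought over the 4 libraries, by the distance between log2 CPM centred on each gene's mean, among 10005 genes of at least 10 CPM. Nearest to PYCR1 were POLDIP3, GUCD1 and TMEM192, and 645 genes lay within a distance of 0.2. Nearest to PYCRL were GSTO2, YDJC and ARVCF, and only 4 genes lay within 0.2. For GOT2 they were AAAS, ESYT1 and DCUN1D1, with 1737 genes within 0.2, and for PCK2 SEH1L, SSBP4 and ABHD14B, with 557. POLDIP3, GUCD1, YDJC and ARVCF lie on chromosome 22.

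In GENCODE 44 on GRCh38, which is not the hg19 build named for the counts, the 8 genes fall on 6 chromosomes. PYCR1 spans 81932384 to 81942412 of chromosome 17 in 7 exons, and PYCRL spans 143603210 to 143609773 of chromosome 8. On chromosome 10, ALDH18A1 spans 95605941 to 95656711 and GOT1 spans 99396870 to 99430624. On chromosome 16, GPT2 spans 46884362 to 46931289 and GOT2 spans 58707131 to 58734342. GLUL spans 182378098 to 182392206 of chromosome 1, and PCK2 spans 24094053 to 24110598 of chromosome 14. GPT2 and PCK2 are transcribed from the plus strand and the other genes from the minus strand. MYADML2 overlaps PYCR1 on the same strand but had at most 8 counts in a library.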

How the data were processed

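RNA-seq of WT and THUMPD1 KO HEK-293T cells comprised 4 libraries, 2 per genotype, grouped by the sample titles, to which the column names correspond. The deposited values are counts, not normalized, given as whole numbers for each gene symbol. Per the labels the build is hg19 and the libraries were made with a RiboFree total RNA kit, while the paper's RNA-seq methods name another kit, 3 samples, STAR and RSEM on GRCh38 with GENCODE 46. The aligner and counter behind this table are not given in the sources used here, nor is strand use. No label says that replicates were separate cultures, so p-values measure only the spread between these libraries. The authors also deposited their own comparison (fold changes and p-values), which was not used. Of the columns used, 0 could not be mapped, and 0 entries lacked a gene name.

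Counts were tested in R 4.3.3 with edgeR 4.0.16 (TMM, glmQLFit, glmQLFTest) on the 13128 genes that reached 1 CPM in 2 or more libraries. P-values were adjusted over all of them by Benjamini-Hochberg, and the threshold was 0.05. Standard errors were derived from the F statistic. Replicates differed by more than sampling noise (chi-square per degree of freedom 4.08 for WT and 6.90 for KO) and were kept apart. The smallest two-sided p of an exact permutation test on 2 against 2 libraries is 0.333. The fit was tested on simulated data. Alternatives used DESeq2 1.42.0, limma 3.58.1, other scalings and filters, a threshold of 0.01, a replicate block and each library left out.

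The members and lists were chosen with earlier results of these data known. Named genes were the 8 members, every pathway gene past the threshold, at most the 2 most abundant per list that did not pass, THUMPD1, ATF4 and the 3 nearest genes by pattern, and any other is marked as chosen after its value was seen. Genes were placed on GRCh38 by GENCODE 44, 12167 by symbol and 846 by synonym. Of the members, 5 matched a RefSeq promoter. Some genes of the lists are counted but not reported here by name. A planned count of leucine and serine in the proteins was replaced by codon counts from GENCODE transcripts. Tables and figures were made with Python 3.11.15, pandas 2.3.3, NumPy 2.4.6 and matplotlib 3.10.9.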

Additional observations from a re-analysis of the deposited data

How the results depend on the processing

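PYCR1 and PYCRL kept their direction and their call under every alternative run, at both thresholds. With DESeq2 1764 genes were called in place of 2748 and 2 pathway genes in place of 5, and PCK2 lost its call (-0.39). At an adjusted p of 0.01, where the stricter threshold is the cause, 1594 genes, 1 pathway gene and not PCK2 (-0.39) were called. With library size alone, which shifts the median over all genes (0.01) to 0.09, GOT2 (-0.20) and PCK2 (-0.31) lost their calls, GLUL (0.24) gained one, and ALDH18A1 (0.0052) and GPT2 (0.019) changed sign. All called genes then split into 2081 higher and 1158 lower, against 1154 and 1594. GLUL was also called with the upper quartile (0.18) and limma-voom (0.19), and 3 pathway genes were called under each. Except as just stated, the causes were not tested.

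With 1 library left out, a lone library was assumed to vary like the other genotype. The number of genes called ran from 1620 to 2591, of members from 2 to 4, the lowest of both without KO replicate 1, and of pathway genes from 2 to 4, with 2 without either KO library and, without WT replicate 2, 1 lower and 3 higher. GOT2 ran from -0.33 to -0.23, PCK2 from -0.51 to -0.28 and GPT2 from -0.14 to 0.017, changing sign without WT replicate 2. GOT2 lost its call without WT replicate 2 or KO replicate 1, and PCK2 without WT replicate 1 or KO replicate 1.

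Replicate numbers are shared by the genotypes in the labels, but nothing says what they mark, and the deviations of WT and KO replicate 1 from the genotype means correlated at 0.08 over 10005 genes. With the replicate block 3222 genes were called, 5 members, GLUL (0.15, adjusted p = 0.0454) being added, and 6 pathway genes. It ended no call of a member.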
